A study of Mus musculus with 6 samples.

Results

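The SLAM family receptors are a group of immunoglobulin-type surface proteins of blood cells, and 8 of their genes were followed here in cultured mouse microglia: Slamf1, Slamf6, Slamf7, Slamf8, Slamf9, Cd48, Cd84 and Ly9. They were taken by gene symbol from the 41079 genes listed in the deposited tables, and the family was chosen by the measured contrast of stimulated against control cultures, in which Slamf8 was already known to be among the largest falls. For this reason the differences of these genes are given as a description. The fit across all genes also covered them, and its calls on them are given as counts beside the share called among all genes, not as evidence. All 8 genes had enough counts to enter the fit of 14618 genes. RNA was sequenced from 3 control and 3 stimulated cultures of microglia that came from C57Bl/6N mice of 1 to 3 days of age, with the brains of several pups of both sexes pooled per flask. By the study's shaking protocol, brain cells were first kept for weeks as glial cultures in medium with serum. L-929 conditioned medium, a source of the macrophage growth factor M-CSF, was added at intervals. Microglia of both groups were shaken off these flasks and seeded for a short time in medium with serum before the test medium was given. Control cultures then received serum-free DMEM/F12. Stimulated cultures received TGFbeta, IL34 and CX3CL1, human proteins at 100 ng/mL each, and by the study's methods also cholesterol and insulin-transferrin-selenium on a collagen IV coating, which the sample labels do not name. None of the 6 libraries came from cells given 1 of these additions alone, so their contributions cannot be told apart.

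SLAM receptors sit on T, B and natural killer cells and on myeloid cells such as macrophages. Most of them bind a copy of themselves on a neighbouring cell, while CD48, which is held in the membrane by a lipid anchor, binds CD244. The tails of SLAMF1, SLAMF6, SLAMF7, CD84, LY9 and CD244 carry tyrosine motifs. These recruit the small adaptors SAP (Sh2d1a), EAT-2 (Sh2d1b1) or both, and through them kinases such as FYN and enzymes such as phospholipase C gamma. Without adaptors, the same motifs can recruit the phosphatases SHP-1 (Ptpn6), SHP-2 (Ptpn11) and SHIP-1 (Inpp5d). SLAMF8 and SLAMF9 have short tails that lack the motif. In macrophages SLAMF1 helps to take up bacteria and to activate the phagocyte NADPH oxidase, SLAMF8 restrains that oxidase, and SLAMF7 has been linked to phagocytosis together with the integrin Mac-1.

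All 8 genes lie on chromosome 1 of GRCm39, the build to which the authors mapped the reads. In GENCODE M39 they span 1002 kb. A tight group runs from Ly9 (171416173 to 171434978, minus strand) through Slamf7 (171459966 to 171480603, minus strand), Cd48 (171509573 to 171532826, plus strand), Slamf1 (171594695 to 171628764, plus strand) and Cd84 (171667263 to 171720036, plus strand) to Slamf6 (171745057 to 171780737, plus strand), with gaps of at most 61.9 kb between neighbours. A gap of 516.5 kb with 14 other protein-coding genes separates this group from Slamf9 (172297192 to 172307889, plus strand) and Slamf8 (172409325 to 172418178, minus strand), which are 101 kb apart.

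Sequences just before the annotated start of the main transcript are printed for Slamf8 and Slamf7, which had the lowest log2 fold changes of the family, and for Slamf6 and Slamf9, which had the highest. They are shown 5′ to 3′ on the strand of the gene, from the GRCm39 genome, and capitals mark matches to the searched motifs. For Slamf8, 13 of the 43 bases nearest the start, which an annotated UTR of another transcript covers, are not printed. The stretches of Slamf7 and Slamf9 lie wholly inside the annotated spans of these genes.
Slamf8, 250 to 44 bases before the start, chr1:172418179-172418385, minus strand: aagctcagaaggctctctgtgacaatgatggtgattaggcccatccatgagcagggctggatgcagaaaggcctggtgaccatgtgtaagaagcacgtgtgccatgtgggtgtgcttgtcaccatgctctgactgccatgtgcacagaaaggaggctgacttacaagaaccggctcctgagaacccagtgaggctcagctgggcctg
Slamf8, 30 to 1 bases before the start, chr1:172418136-172418165, minus strand: ctttacccgggatgcTTTCGCTTTCaagac
Slamf7, 250 to 1 bases before the start, chr1:171476581-171476830, minus strand: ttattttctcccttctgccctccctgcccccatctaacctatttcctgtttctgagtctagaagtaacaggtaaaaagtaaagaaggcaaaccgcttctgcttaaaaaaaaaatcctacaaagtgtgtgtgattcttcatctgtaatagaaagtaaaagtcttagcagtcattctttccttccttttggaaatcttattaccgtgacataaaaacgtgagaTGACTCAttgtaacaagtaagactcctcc
Slamf6, 250 to 1 bases before the start, chr1:171744807-171745056, plus strand: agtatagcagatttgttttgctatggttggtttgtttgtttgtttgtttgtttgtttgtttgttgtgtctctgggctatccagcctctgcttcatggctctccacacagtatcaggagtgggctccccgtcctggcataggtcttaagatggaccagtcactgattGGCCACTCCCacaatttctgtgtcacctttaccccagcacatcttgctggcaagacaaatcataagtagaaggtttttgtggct
Slamf9, 250 to 1 bases before the start, chr1:172302594-172302843, plus strand: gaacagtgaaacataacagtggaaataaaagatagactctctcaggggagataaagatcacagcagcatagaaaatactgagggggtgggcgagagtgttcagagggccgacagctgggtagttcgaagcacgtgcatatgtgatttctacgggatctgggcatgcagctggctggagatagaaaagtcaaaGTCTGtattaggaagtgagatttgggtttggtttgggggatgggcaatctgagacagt

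The 250 bases before the start of the main transcript were searched on both strands for 6 motifs. This was done for the 8 genes and for 21757 protein-coding genes in all. For Slamf7, Slamf9 and Cd84 these bases lie inside the annotated span of the gene. The interferon response element, spelled as GAAA and GAAA with any 2 bases between them, was found in 3.32% of all windows and in 1 of the 8, that of Slamf8, 15 bases before the start on the strand opposite to the gene. The AP-1 element TGANTCA was in 6.18% of all windows and in that of Slamf7, 29 bases before the start. The loose NF-kappaB type pattern, GGG and CC with any 5 bases between them, found in 47.8% of all windows, was in that of Slamf6 alone among the 8. The SMAD element GTCTG, which TGF-beta signalling proteins bind, was in 41.4% of all windows and in 5 of the 8, those of Cd48, Cd84, Ly9, Slamf1 and Slamf9. The ETS core GAGGAA, in 22.9% of all windows, and the ETS-IRF composite, GGAA and GAAA with any 2 bases between them, in 2.54%, were in none of the 8. The composite differs from the interferon pattern in its first part, so no stretch on 1 strand fits both, but each may share letters with the ETS core. These matches describe the letters in the windows and were not tested as binding sites.

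The libraries held between 20628148 and 27261839 counts. Libraries of one group differed by more than sampling noise, with a chi-square per degree of freedom of 10.6 to 78.5 between pairs. The pairs with stimulated library 1 stood at 78.5 and 45.9, and all others at 25.8 or less. The study describes them as biological replicates, while the labels do not say that they came from separate cultures, so the errors given may be partly technical. Expression is given as CPM, the counts scaled by library size with edgeR's TMM factors, mean ± SD, and as log2 fold change of stimulated against control with its standard error (SE). A gene is named as called where edgeR's quasi-likelihood test gave an adjusted p below 0.05. The 11 microglial markers, among them Tmem119 and Cx3cr1, were all detected, 9 rose, Aif1 and Csf1r fell, and they summed to 6238 to 6494 CPM in control and 11858 to 15140 CPM in stimulated libraries. Of all genes tested, 14.7% were called higher and 15.2% lower.

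Slamf8 showed the largest difference of the family. It had 52.6, 55.0 and 69.5 CPM in the control libraries and 2.37, 2.04 and 2.61 CPM in the stimulated libraries. Every stimulated library was far below every control library, and the counts behind these values were 1204 to 1900 against 48 to 54. The means were 59.1 ± 9.15 and 2.34 ± 0.29 CPM (SD, n = 3 each), a ratio of 25.2, and the log2 fold change was -4.66 (SE 0.16). Among the 3520 called genes that averaged at least 5 CPM, it had the 4th lowest log2 fold change, between Ccl5 at -4.81 and Mmp9 at -4.60. In these bulk cultures, fewer cells with a transcript and less of it per cell cannot be told apart.

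Slamf7, the receptor tied to phagocytosis and, on natural killer cells, to activation, had the next largest difference. Its control libraries held 17.7, 17.0 and 20.6 CPM and its stimulated libraries 3.08, 1.96 and 2.56 CPM. The groups did not overlap, and the means of 18.4 ± 1.93 and 2.53 ± 0.56 CPM (SD, n = 3 each) stood in a ratio of 7.27. The log2 fold change was -2.87 (SE 0.17). On the log2(FPKM + 1) scale it was -1.47, since this scale understates the change of low genes.

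Ly9, a receptor known from lymphocytes and best studied there as a brake on innate-like T cells, was also lower. It had 102, 112 and 117 CPM in control and 41.5, 48.7 and 44.5 CPM in stimulated libraries. Control libraries all lay above every stimulated library. The means were 110.1 ± 7.50 and 44.9 ± 3.65 CPM (n = 3 each, ± SD), and the log2 fold change was -1.29 (SE 0.10). Cd48, the lipid-anchored ligand of CD244, had 182, 211 and 213 CPM in control and 112, 124 and 120.0 CPM in stimulated libraries. Its groups did not overlap either, but its log2 fold change of -0.77 (SE 0.09) was smaller in size than that of Ly9.

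Slamf1, the founding member of the family, had few counts in both conditions. Its counts were 16, 18 and 22 in the control and 13, 12 and 8 in the stimulated libraries. The scaled values of 0.70, 0.73 and 0.81 CPM in control and 0.62, 0.51 and 0.39 CPM in stimulated libraries did not overlap. The summed counts gave a ratio of stimulated to control of 0.67 with a 95% exact interval of 0.42 to 1.06, which covers counting error only. The log2 fold change was -0.56 (SE 0.35).

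Slamf6, Slamf9 and Cd84 were higher in the stimulated cultures. Slamf6, known from lymphocytes, had 2.32, 1.22 and 1.87 CPM in control and 5.26, 5.53 and 5.27 CPM in stimulated libraries. The stimulated libraries lay close together and above the more scattered controls, and the counts were low, at 30 to 53 against 109 to 130. The log2 fold change was 1.57 (SE 0.24), from means of 1.80 ± 0.55 and 5.35 ± 0.16 CPM (SD, n = 3 each). Slamf9, the close neighbour of Slamf8 with a similarly short tail, had 15.4, 13.4 and 18.0 CPM in control and 29.1, 40.0 and 41.6 CPM in stimulated libraries. Stimulated library 1 was the lowest of its group and still above the highest control. The means were 15.6 ± 2.32 and 36.9 ± 6.81 CPM (SD, n = 3 each), and the log2 fold change was 1.24 (SE 0.16).

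Cd84, a receptor that binds itself and is found on platelets and many myeloid cells, had the most counts of the family and the smallest difference. It had 486, 518 and 521 CPM in control and 628, 666 and 670.4 CPM in stimulated libraries. The groups did not overlap, and the spread within each was narrow. The means were 508 ± 19.6 and 655 ± 23.0 CPM (SD, n = 3 each), a ratio of 1.29 and a log2 fold change of 0.37 (SE 0.09). When only library size was scaled for, the log2 fold change of Cd84 was 0.24. That scaling moved the median of all genes by -0.13.

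**Figure D1:**
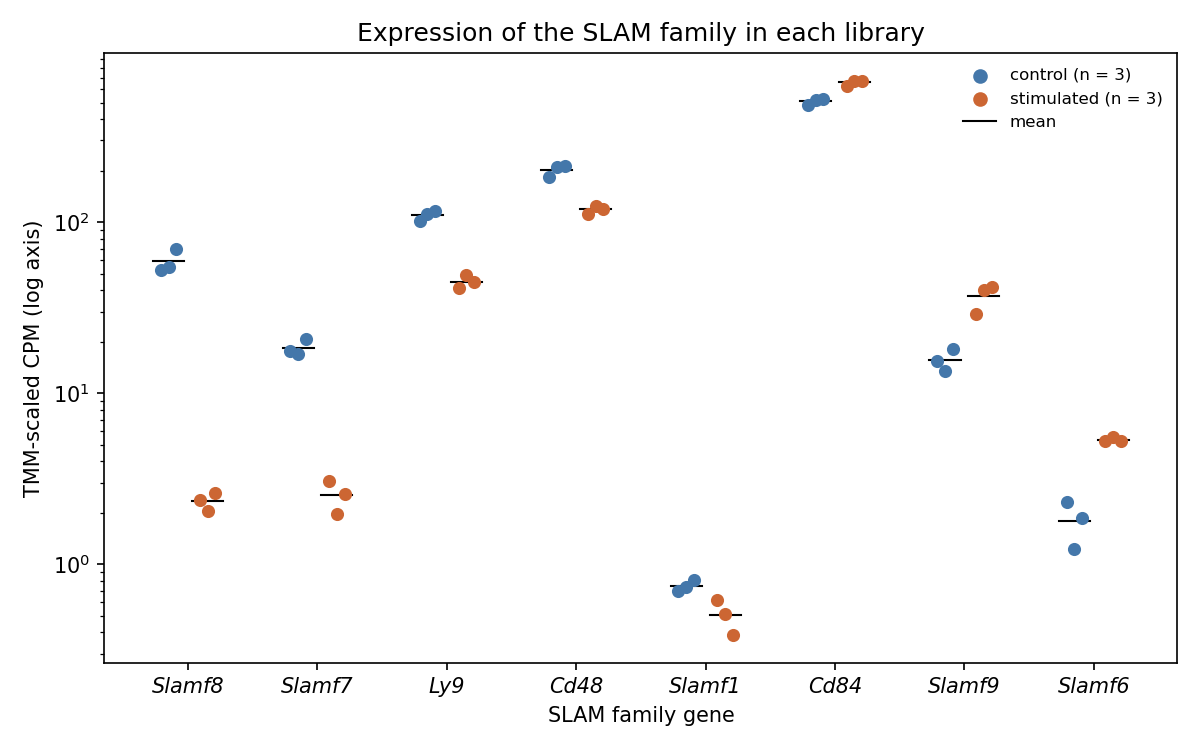
TMM-scaled CPM on a log axis for the 8 SLAM family genes, with 1 point per library, 3 control and 3 stimulated, and a line at each group mean. Slamf8 went from a mean of 59.1 to 2.34 CPM, while Slamf9 went from 15.6 to 36.9 CPM and Cd84 from 508 to 655 CPM.

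In the count over the family, 4 genes (Slamf7, Slamf8, Cd48, Ly9) were lower and 3 (Slamf6, Slamf9, Cd84) were higher among the called genes. Of all 14618 genes tested, 29.8% were called in either direction, 14.7% higher and 15.2% lower. With library size alone, 32.3% of all called genes were higher, against 49.1% with TMM factors. Libraries did not overlap between the conditions for all 8 genes, 5 of them lower and 3 higher, against 43.9% of all genes tested, 22.5% lower and 21.4% higher. A log2 fold change of -1 or lower was found for 3 of the 8 genes and 5.53% of all, and one of at least 1 in either direction for 5 of the 8 and 12.4% of all. The median log2 fold change was -0.66 over the 8 genes and 0.0079 over all genes. As the contrast was used to choose the family, these counts are a description and not evidence about it. Without control replicate 1, Cd84 was not among the genes called, and its log2 fold change was 0.33.

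**Figure D2:**
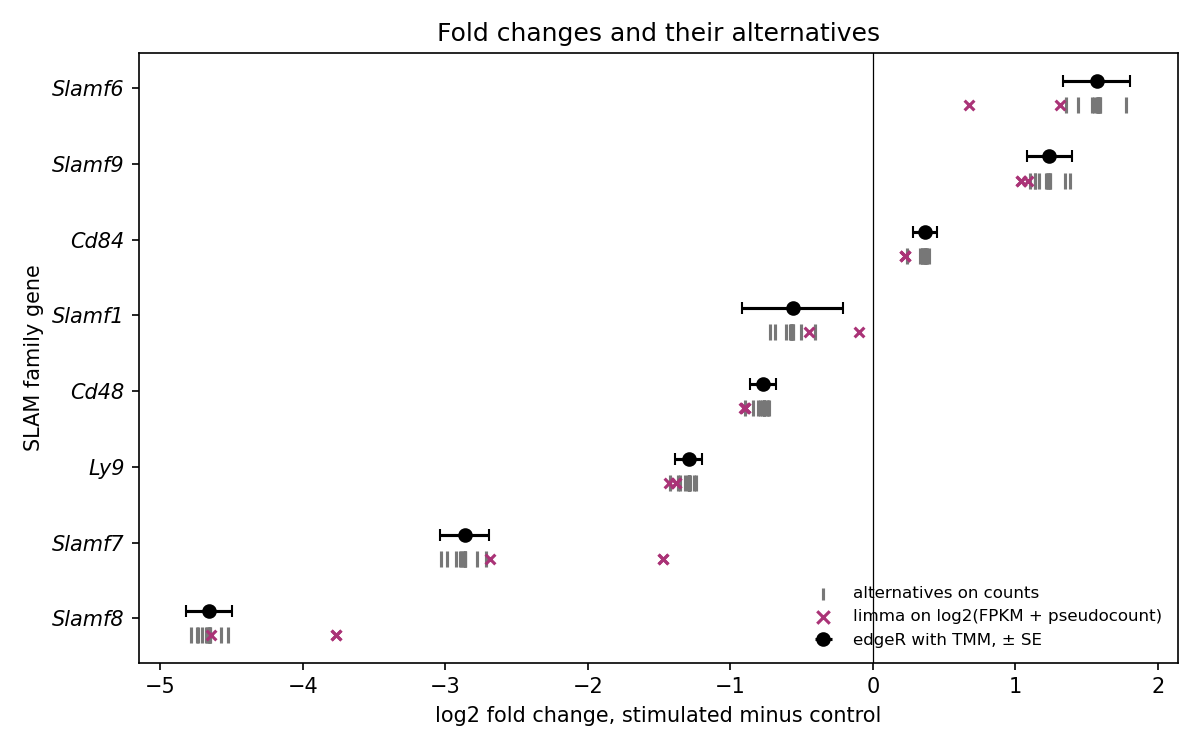
Log2 fold change of stimulated against control cultures for the 8 genes, with black points for edgeR with TMM factors ± SE, grey ticks for alternatives on the counts and crosses for limma on log2(FPKM + pseudocount). Each gene kept its sign in every alternative in which it was fitted, from -4.66 for Slamf8 to 1.57 for Slamf6 in the black points, and the crosses of Slamf7 reach -1.47.

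Levels of different genes can be compared only per length, and FPKM values serve for that. In control cultures the order by mean FPKM was Cd48 (134 ± 9.96), Cd84 (78.3 ± 2.96), Ly9 (44.0 ± 2.17), Slamf8 (25.1 ± 2.92), Slamf9 (13.8 ± 1.58), Slamf7 (2.72 ± 0.18), Slamf6 (0.53 ± 0.16) and Slamf1 (0.21 ± 0.0085), each as mean ± SD of 3 libraries. No gene overlapped the next in this order. In stimulated cultures the order was Cd84 (91.7 ± 3.23), Cd48 (71.3 ± 1.76), Slamf9 (29.6 ± 4.97), Ly9 (16.3 ± 0.66), Slamf6 (1.43 ± 0.021), Slamf8 (0.91 ± 0.14), Slamf7 (0.34 ± 0.088) and Slamf1 (0.13 ± 0.032). Again no gene overlapped the next.

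The stimulated order depended on the gene lengths behind the FPKM values. Per kb of merged exons in GENCODE M39, Cd48 and Cd84 stood at 82.1 ± 4.17 and 81.6 ± 2.86 CPM per kb in stimulated cultures (SD, n = 3 each) and could not be ranked, and Slamf6, at 0.49, came after Slamf8, at 0.71, and Slamf7, at 0.55. The deposited FPKM values implied a length for Slamf6 that was 2.25 times that of Cd48, against 7.53 times in GENCODE. The control order was the same with both lengths.

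**Figure D3:**
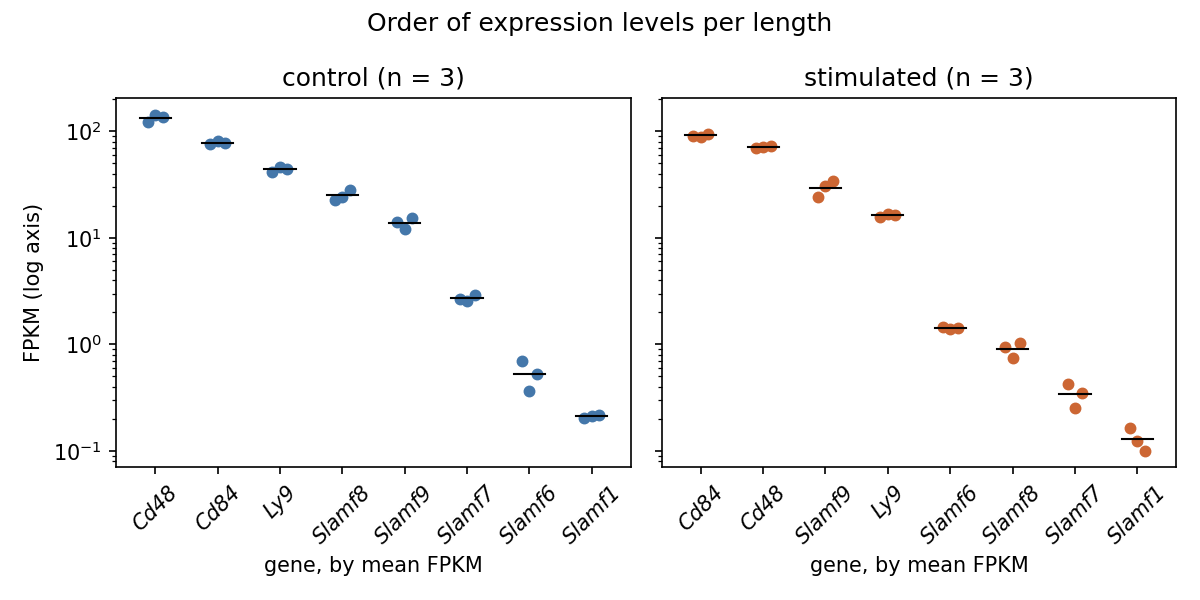
FPKM on a log axis for the 8 genes in order of their mean, in control cultures on the left and stimulated cultures on the right, with 1 point per library and a line at the mean. Cd48 leads in control at 134 FPKM and Cd84 leads in stimulated cultures at 91.7 FPKM, while Slamf8 moves from rank 4 to rank 6.

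Summed over the 8 genes, the FPKM values came to 281, 310 and 304 in control and to 203, 210 and 222 in stimulated libraries. The family total was thus lower in each stimulated library, at 212 ± 9.22 against 298 ± 15 (SD, n = 3 each). Its make-up differed as well. Cd48 gave 44.8 ± 1.23% of the family FPKM in control and 33.7 ± 0.63% in stimulated cultures, and Cd84 gave 26.3 ± 0.92% and 43.3 ± 1.25%. Slamf9 gave 4.65 ± 0.62% and 14.0 ± 1.81%, whereas Slamf8 gave 8.39 ± 0.83% and 0.43 ± 0.061%. Ratios between members of one library do not depend on the scaling of that library. The total, the shares and the ratios do depend on the gene lengths behind the FPKM values. Per kb of merged exons, Cd84 and Cd48 stood at 63.3 and 139.9 CPM per kb in control and at 81.6 and 82.1 in stimulated cultures. The FPKM ratio of Slamf9 to Slamf8, the pair of neighbours with short tails, was 0.61, 0.51 and 0.54 in control and 25.6, 40.8 and 33.2 in stimulated libraries. The ratio of Cd84 to Cd48 was 0.62, 0.57 and 0.57 in control and 1.31, 1.25 and 1.30 in stimulated libraries.

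For each of the 8 genes, the 3 genes with the most similar course over the 6 libraries were taken from 9839 genes with a mean of at least 5 CPM, by the root mean square difference of log2 CPM centred on each gene's mean. For Slamf8 they were Gbp5, Ccl5 and Ccl9, at differences of 0.21, 0.21 and 0.29. For Slamf7 they were Rgl1, Fpr1 and Stap1, at 0.13, 0.15 and 0.17. For Slamf9 they were Rhov, Alox5ap and Cd320, at 0.084, 0.093 and 0.094, and for Slamf6 they were H2-Ab1, Fkbp5 and Gdpd5, at 0.17, 0.17 and 0.19. The nearest gene was Ptpro for Ly9 (0.041), Max for Cd48 (0.042), Tmem38b for Cd84 (0.018) and Flt3l for Slamf1 (0.062). The likeness follows the size of the difference between the conditions, and all of these values share the same 6 libraries.

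The genes known to work with SLAM receptors were read from the same fit, as a list of 35 genes. Of these, 32 had enough counts to test, 6 rose, 10 fell and 16 did not pass the test (edgeR, adjusted over all genes). Among all genes, 14.7% were called higher, 15.2% lower and 29.8% in either direction. The median log2 fold change was 0.00019. Without control replicate 1, 6 of them fell, and 1726 of all 15036 genes tested then were called lower, against 2218 of 14618 with all libraries.

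The remaining receptor of the family, Cd244a, whose protein binds CD48, had 22.9, 19.5 and 25.1 CPM in control and 21.3, 20.1 and 23.0 CPM in stimulated libraries. The groups overlapped, and its log2 fold change was -0.067 (SE 0.12, adjusted p = 0.72 by edgeR), or 0.015 without control replicate 3. Cd2, a second partner of CD48 in mice, and Sh2d1a, which encodes SAP, had 0 counts in all 6 libraries. The adaptor EAT-2 was scarce: Sh2d1b1 was counted 8, 3 and 17 times in the control libraries and 17, 30 and 16 times in the stimulated libraries, and its log2 fold change of 1.36 (SE 0.51) had an adjusted p-value of 0.075 by edgeR. Its scaled levels of 0.35, 0.12 and 0.62 CPM in control and 0.80, 1.28 and 0.77 CPM in stimulated libraries did not overlap, and the summed counts gave a ratio of stimulated to control of 2.58 with a 95% exact interval of 1.63 to 4.18, for counting error only. Without control replicate 3, the log2 fold change of Sh2d1b1 was 2.00 (SE 0.60) and the adjusted p-value 0.040 by edgeR, and over the alternatives the adjusted p-values ran from 0.040 to 0.21. Its relative Sh2d1b2 had 0 to 4 counts per library.

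Among 12 kinases, phosphatases and effectors, 4 rose, 4 fell and 4 did not pass the test, against 14.7% higher and 15.2% lower among all genes. Ptpn6, the phosphatase SHP-1, fell with a log2 fold change of -0.48 (SE 0.10, adjusted p = 0.0045 by edgeR). Fgr, a Src-type kinase of myeloid cells, rose from means of 2.05 ± 0.34 to 5.60 ± 0.28 CPM (n = 3 each, ± SD), and its log2 fold change was 1.45 (SE 0.19, adjusted p = 0.00027 by edgeR). Plcg1, a phospholipase C gamma, rose with a log2 fold change of 1.04 (SE 0.13, adjusted p = 0.00021 by edgeR). Each of these was called in all 15 alternatives, except that Fgr was fitted in 14.

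Of 12 genes of the phagosome and the NADPH oxidase, the machinery on which SLAMF1 and SLAMF8 act, 1 rose and 5 fell. Among all genes, 14.7% were called higher and 15.2% lower, and the list was not tested as a set. Cybb, the catalytic subunit of the oxidase, had 2453, 2484 and 2530.4 CPM in control and 873, 661 and 816 CPM in stimulated libraries. These groups were far apart, with a log2 fold change of -1.67 (SE 0.12, adjusted p = 5.4e-06 by edgeR). Ncf4, a cytosolic subunit, fell with -1.05 (SE 0.10, adjusted p = 2.8e-05 by edgeR), whereas Ncf1, the organizer subunit, rose with 0.59 (SE 0.09, adjusted p = 0.00067 by edgeR). Of 6 genes linked to phagocytosis through SLAMF7, 1 rose, 1 fell and 4 did not pass the test, against the same shares among all genes. Itgam, a chain of the integrin Mac-1, rose from means of 798 ± 43.0 to 1410 ± 73.1 CPM (n = 3 each, ± SD), and its log2 fold change was 0.82 (SE 0.10, adjusted p = 0.00012 by edgeR). Syk, a kinase downstream of receptors with activating motifs, fell from means of 300.2 ± 14.4 to 170.1 ± 9.23 CPM (n = 3 each, ± SD), and its log2 fold change was -0.82 (SE 0.08, adjusted p = 5.7e-05 by edgeR).

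**Figure D4:**
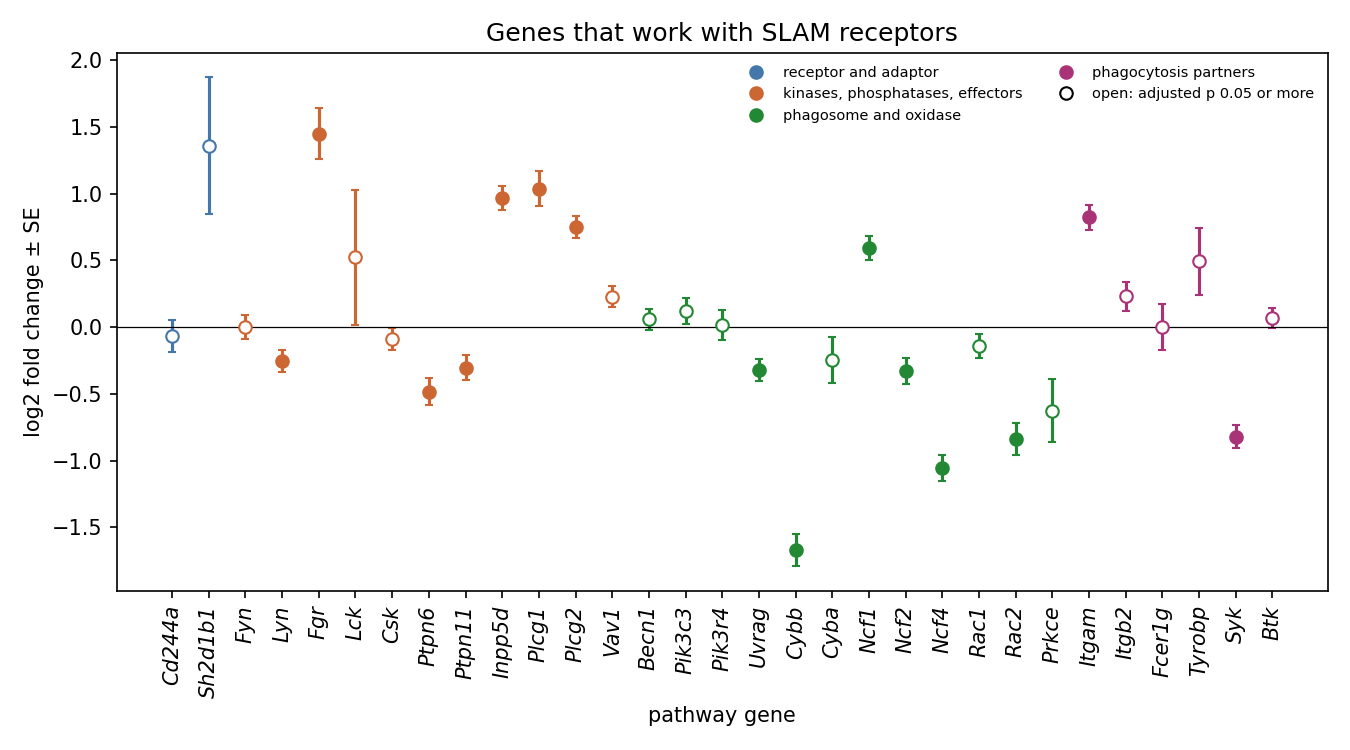
Log2 fold change ± SE of tested genes known to work with SLAM receptors, all but 1 of them shown, coloured by role, with filled points for an adjusted p-value under 0.05 and open points for the rest. Fgr at 1.45 and Plcg1 at 1.04 lie above 0, Cybb at -1.67 and Ncf4 at -1.05 lie below, and the receptor Cd244a lies at -0.067.

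Along the chromosome, Ly9, Slamf7 and Cd48, which were lower, lay next to each other, followed by Slamf1 and then by Cd84 and Slamf6, which were higher. The protein-coding genes Igsf9, Tagln2, Cfap45 and Vsig8 lie between Slamf9, which was higher, and Slamf8, which was lower. Of 33 other protein-coding genes between 250 kb before Ly9 and 250 kb after Slamf8, 26 were tested, 4 rose, 4 fell and 18 did not pass the test, so that 8 of 26 were called, close to the 29.8% among all genes, with a median log2 fold change of 0.054. With library size alone, 3 rose and 8 fell. Of all 14618 genes, that scaling called 1513 higher and 3168 lower, against 2142 and 2218 with TMM factors. The largest increase was that of F11r, which encodes a junctional adhesion molecule, from means of 23.9 ± 2.31 to 169 ± 20.2 CPM (n = 3 each, ± SD), and its log2 fold change was 2.82 (SE 0.12, adjusted p = 1.8e-07 by edgeR). Vangl2, a planar cell polarity gene, rose with 1.05 (SE 0.11, adjusted p = 8.1e-05 by edgeR), and Ncstn, a subunit of gamma-secretase, rose with 0.66 (SE 0.08, adjusted p = 0.00019 by edgeR).

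Next to Slamf8, Vsig8 was counted 16, 31 and 14 times in the control libraries and 1 time in each stimulated library. The summed counts stood in a ratio of control to stimulated of 17.8 with a 95% exact interval of 5.8 to 88.5, for counting error only, and its adjusted p-value was 0.0010 by edgeR. Dusp23, a phosphatase gene on the other side of Slamf8, fell with a log2 fold change of -1.14 (SE 0.23, adjusted p = 0.0038 by edgeR). Tagln2, an actin-binding protein gene between Slamf9 and Slamf8, fell with -0.92 (SE 0.12, adjusted p = 0.00031 by edgeR), while Slamf9 itself stood at 1.24. At the far end, Ly9 lies inside the span of Cd244a on the opposite strand with no shared exon, and the pair had log2 fold changes of -1.29 and -0.067.

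**Figure D5:**
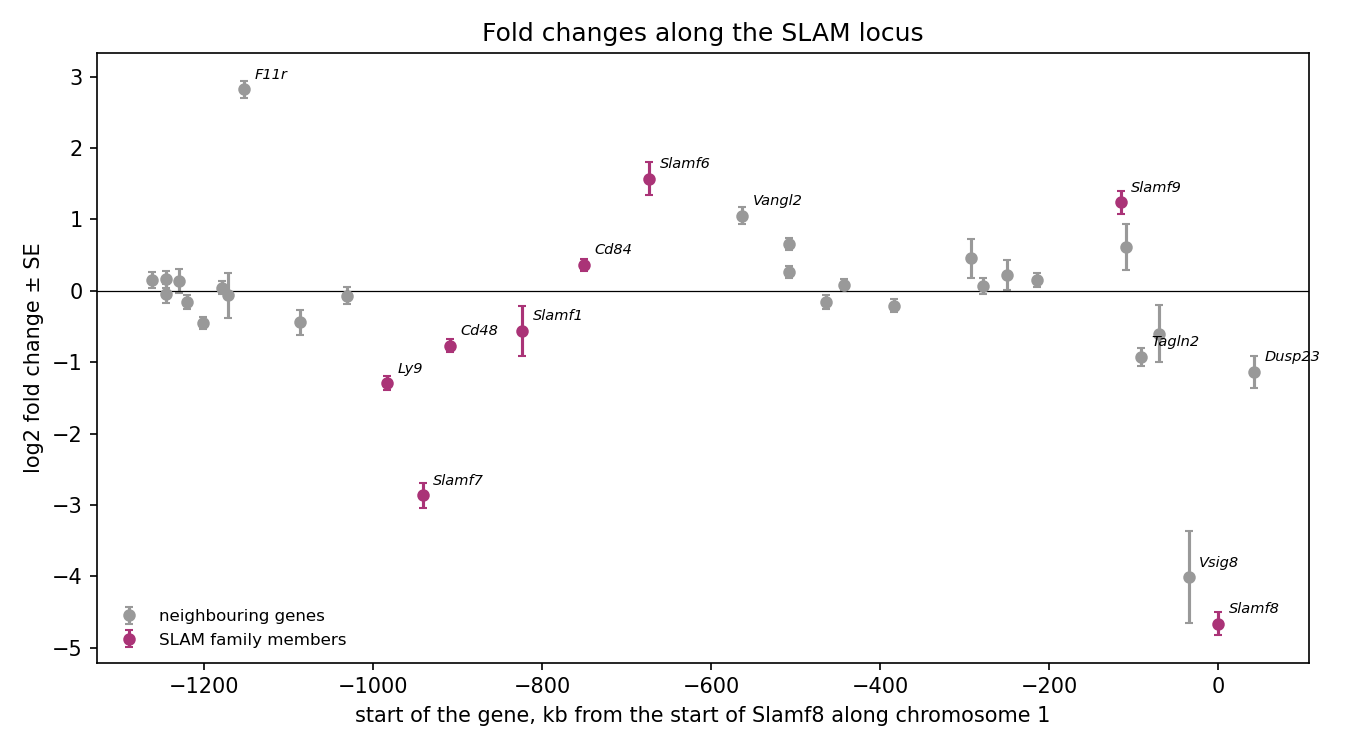
Log2 fold change ± SE against the distance of each gene's start from the start of Slamf8, in kb along chromosome 1. Starts are those of the main transcripts. SLAM family genes are in purple and the 26 tested neighbours in grey. The starts of Slamf8 at -4.66 and Slamf9 at 1.24 lie about 115 kb apart, and F11r stands above all other genes shown at 2.82.

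Overlapping exons could add reads to a gene or take them from it where strand was not used in counting. The strand setting is not given in the sources used here. Slamf6 shares 295 exon bases with Gm37065 on the other strand, a gene with 0 counts in 5 libraries and 1 count in stimulated library 2. Slamf7 and Slamf9 overlap antisense genes of GENCODE M39 that the deposited tables do not list, by 423 and by 107 and 140 bases. The other 5 SLAM genes shared no exon base with another annotated gene.

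Other cells that carry SLAM receptors were looked for with marker lists. The T cell list of 8 genes summed to 3.95 to 7.08 CPM in control and 15.7 to 19.6 CPM in stimulated libraries, and nearly all of this came from Cd5 and Cd247. Cd5 was called higher, from a mean of 0.50 to 9.29 CPM, with a log2 fold change of 4.21 (SE 0.23, adjusted p = 8.7e-07 by edgeR). Cd247, at 5.38 and 7.97 CPM, was not called (adjusted p = 0.12 by edgeR). Of the others, Cd3e, Cd3g, Themis and Trac were at 0 counts in all libraries, and Cd3d had 3 counts in control library 2 and none elsewhere. The 6 natural killer cell genes summed to at most 0.18 CPM in control and 0.76 CPM in stimulated libraries, with Prf1 at 0 counts, and the 6 B and plasma cell genes to at most 1.17 and 0.90 CPM, with Pax5 at 0 counts. The 5 dendritic cell genes summed to 8.16 to 8.61 CPM in control and 4.50 to 5.49 CPM in stimulated libraries, nearly all from Zbtb46, with Flt3 and Ccr7 at 0 counts. The 5 monocyte genes summed to 0.70 to 1.32 and 0.53 to 4.17 CPM with Chil3 at 0 counts. The upper end came mostly from Plac8, with 54 counts in stimulated library 1 and 0 in stimulated libraries 2 and 3. The 6 neutrophil genes summed to 0.22 to 0.33 and 1.55 to 3.11 CPM with S100a9, Ly6g and Ngp at 0 counts. The stimulated sums came mostly from S100a8, with 2, 4 and 6 counts in control and 30, 72 and 30 in stimulated libraries. It was called higher, with a log2 fold change of 3.59 (SE 0.50, adjusted p = 0.00039 by edgeR). Of the mast cell genes, 4 of 5 were at 0 counts. The 6 border-associated macrophage genes summed to 799.6 to 828 CPM in control and 722 to 842 CPM in stimulated libraries, where Mrc1 fell from 329.9 to 62.7 CPM and Pf4 and Siglec1 rose, while Lyve1 and Cd163 were under 1 CPM. Sums for astrocytes (27.1 to 30.0 and 18.3 to 20.8 CPM), the oligodendrocyte lineage (40.7 to 52.0 and 56.3 to 65.5 CPM), neurons (3.07 to 4.63 and 5.30 to 6.29 CPM) and fibroblasts (19.3 to 25.5 and 19.9 to 77.0 CPM) were small beside the microglial sum. The upper end for fibroblasts was that of stimulated library 3, where Col1a1 had 31.5 CPM against 11.6 and 8.77 CPM in stimulated libraries 1 and 2. The part of these other cell types in the differences of the SLAM genes was not tested.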

How the data were processed

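RNA-seq counts and FPKM values of 6 libraries were used. Paired-end reads were mapped by the authors to mm39 with HISAT2 and counted per gene with featureCounts, and the deposited raw counts carry no normalization. FPKM values were also deposited by the authors, and the gene lengths behind them are not given in the sources used here, nor are tool versions, annotation and strand setting. Each column was matched to its sample by name. Differential expression was computed from the counts with edgeR 4.0.16 under R 4.3.3 (filterByExpr, TMM factors, glmQLFit and glmQLFTest, Benjamini-Hochberg adjustment over 14618 genes, threshold 0.05). The SE was the size of the log2 fold change divided by the square root of F. The coefficient of variation between replicates was 0.13. Positions and sequences came from GENCODE M39 on GRCm39, in which 35087 of 41079 symbols were found. The 8 genes, gene lists, motifs and tests were chosen with earlier results of these data known. Named genes were the 8 SLAM genes, direct adaptors, the extremes of each pathway group and of the neighbours, and the genes most like each member. Same-numbered libraries had correlations of 0.27, -0.012 and 0.18 between their deviations from the group means, and differently numbered ones of -0.29 to 0.19. As these ranges overlap, the numbers were not taken to pair the libraries, but pairing is not excluded. Alternatives were other scaling factors, filters, DESeq2 1.42.0, limma 3.58.1 on log2(FPKM + 1) or log2(FPKM + 0.1), a replicate block and each library left out. The steps were tested on simulated counts in which all genes had the same variation between replicates. The outcome is not reported here, and that test does not cover libraries of unequal noise. Single values of some listed genes are not reported here, while the counts and sums over their lists include them.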

Additional observations from a re-analysis of the deposited data

How the results depend on the processing

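Calls of SLAM genes are a description, since the contrast chose the family. The SLAM genes kept the sign of their log2 fold changes in every alternative in which they were fitted, with Slamf8 between -4.78 and -3.77, Slamf7 between -3.03 and -1.47 and Cd84 between 0.22 and 0.40. With limma on log2(FPKM + 1) of genes that averaged 1 FPKM or more, 1 SLAM gene (Slamf9) was called higher, Cd84 was not called, Slamf6 and Slamf1 were not fitted, and 1175 of all genes were higher, against 2142. With limma on log2(FPKM + 0.1), Slamf1 was called lower and Cd84 was not called. The replicate number as a replicate block gave 4924 calls against 4360 and changed no call of a SLAM gene. Without stimulated replicate 1 there were 5234 calls, against 3249 to 4378 when any other library was left out, and no call of a SLAM gene changed. Of the neighbours on chromosome 1, 8 fell when only library size was scaled for and 8 in the limma fit of log2(FPKM + 1), against 4. Of all genes, 3168 and 3320 were called lower in these fits, against 2218. Of the pathway genes, between 6 and 11 fell when each library was left out in turn, against 10. Of all genes, between 1646 and 2643 were called lower in those fits. The order of levels in stimulated cultures kept 3 of 8 ranks with CPM per kb of merged exons. Cd244a lay between -0.16 and 0.015 with each library left out, with the change of sign without control replicate 3. Apart from the effect of the stated filters, the causes were not tested. Depth limits Slamf1, Slamf6, Sh2d1b1 and Vsig8, and the FPKM step limits comparisons of levels between genes.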
